A study of Mus musculus with 8 samples.

Results

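The amino acid and endoplasmic reticulum (ER) stress response of mouse embryonic stem (ES) cells was followed through 35 named genes in cells edited to lack the Polycomb genes Pcgf3 and Pcgf5. The genes were chosen by name, with earlier results of these data known. Matched by mouse symbol to the Ensembl identifiers of the deposited tables, all 35 were found among the 47069 genes listed. They fall into an Atf4-type arm of 27 genes and an ER arm of 8 genes, and all 35 passed the filter on low counts. Poly-A RNA was sequenced from 4 groups of 2 libraries, and reads were counted per gene. The double knockout (DKO, labelled Pcgf3/5 DKO) lacks both genes, Pcgf5KO and Pcgf3KO each lack 1, and WT is wild type. All 4 groups were C57BL/6 ES cells kept with leukemia inhibitory factor and fetal calf serum on feeder fibroblasts inactivated with mitomycin-C. The medium of all groups also held L-glutamine, non-essential amino acids and betamercaptoethanol, and the knockouts were made with Cas9. The labels do not say if the 2 libraries of a group came from separate clones or cultures, so the p-values measure only the spread between these libraries, which may be technical.

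Cells that lack amino acids, or whose ER fills with unfolded protein, slow protein synthesis by phosphorylating the initiation factor eIF2alpha, and under that condition the mRNA of the transcription factor Atf4 is translated more. Atf4 and its partners then raise genes that make, import and charge amino acids. ER stress also acts through the sensors Ire1, which splices Xbp1 mRNA into the form that encodes the active factor, and Atf6, and these raise ER chaperones. Atf4 protein is set largely by translation and Xbp1 activity by splicing, and counts of reads per gene measure neither.

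Promoter sequence was searched for the elements bound by these factors in the RefSeq windows of build GRCm38.p6 (250 bases before to 50 after each start, both strands). Of the 35 genes 32 had a window, and Cth, Slc7a3 and Slc7a5 had none. The 32 genes had 36 windows, and a gene was counted if any of its windows held a match. The Atf4 and C/EBP composite element CARE (TGATGNAA) was found for 8 of 24 Atf4-type genes, namely Asns, Atf3, Chac1, Nupr1, Pycr1, Slc7a11, Trib3 and Vldlr. It was found for 1 of 8 ER genes, Herpud1, and for 4.51% of all 27025 genes with a window. The ER stress element ERSE (CCAAT, any 9 bases, CCACG) was found for 0 of 24 Atf4-type genes and for 3 of 8 ER genes (Calr, Hsp90b1 and Hspa5), against 0.137% of all genes. ERSE-II (ATTGG, any 1 base, CCACG), which shares the CCACG letters with ERSE, was in the Herpud1 window and in 0.0444% of all genes. The unfolded protein response element UPRE (TGACGTGG) was in no member's window and in 0.714% of all genes. A match is a string of letters and not a measured binding site. The stretches below are examples and do not link an element to a result. Xbp1 and Atf3 passed the test in all 3 comparisons with WT. Chac1, Calr and Herpud1 did not pass against WT and are shown because each carries an element of its arm. Atf4 and Ddit3, which passed in DKO and in Pcgf5KO, had no match and are not shown.
Xbp1 (chr11:5520521-5520640, plus strand, no match): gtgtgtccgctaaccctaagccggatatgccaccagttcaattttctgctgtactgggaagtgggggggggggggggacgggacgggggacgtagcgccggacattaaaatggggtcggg
Atf3 (chr1:191183396-191183483, minus strand, CARE in capitals, read on the other strand): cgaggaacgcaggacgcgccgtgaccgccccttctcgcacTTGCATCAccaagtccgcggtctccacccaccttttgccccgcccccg
Chac1 (chr2:119351009-119351096, plus strand, CARE in capitals, read on the other strand): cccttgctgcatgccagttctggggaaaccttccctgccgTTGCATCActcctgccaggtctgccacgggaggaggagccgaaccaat
Calr (chr8:84847035-84847133, minus strand, ERSE in capitals, read on the other strand): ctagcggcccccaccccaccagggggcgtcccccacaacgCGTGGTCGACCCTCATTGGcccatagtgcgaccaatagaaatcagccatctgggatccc
Herpud1 (chr8:94386277-94386427, plus strand, CARE first, read on the other strand, then ERSE-II, both in capitals): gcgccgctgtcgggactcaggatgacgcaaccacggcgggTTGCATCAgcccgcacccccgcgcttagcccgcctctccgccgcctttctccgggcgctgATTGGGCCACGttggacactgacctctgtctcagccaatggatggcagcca

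Library totals ran between 12652616 and 19923964 counts, except for WT replicate 1, whose table breaks off after 8093 genes (17.2% of the list) and holds 3459002 counts. All values and tests below therefore use the other 7 libraries, in which WT is replicate 2 alone, unless 8 libraries are named. Levels are CPM, read counts scaled by library size and edgeR's TMM factors, and the test is edgeR's quasi-likelihood test over 15669 genes with Benjamini-Hochberg adjusted p of at most 0.05 as the threshold. Pcgf3 had 86.6 and 67.2 CPM in DKO, 92.3 and 94.1 in Pcgf5KO, 66.1 and 60.5 in Pcgf3KO and 110 in WT. Pcgf5 had 13.5 and 13.9 CPM in DKO, 12.3 and 9.06 in Pcgf5KO, 17.3 and 17.4 in Pcgf3KO and 20.7 in WT, so transcripts of both genes were present in every group. DKO replicate 1 and WT replicate 2 stood apart. DKO replicate 1 correlated with the other 6 libraries at 0.973 to 0.985, the last being the value with DKO replicate 2. WT replicate 2 correlated with the other 6 at 0.973 to 0.984, the lowest being the value with DKO replicate 1. The pair of Pcgf3KO libraries correlated at 0.993 and the pair of Pcgf5KO libraries at 0.992 (Pearson's r of log2 CPM across genes).

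Against WT, 5 of the 35 genes passed the test in at least 1 knockout group. Xbp1 rose and Atf3 fell in all 3 groups, Atf4 fell in DKO, and in Pcgf5KO Ddit3 fell and Slc7a3 rose. That gives 3 of 35 genes in DKO, where 3.22% of all genes were called. It gives 4 of 35 in Pcgf5KO, where 2.99% were called, and 2 of 35 in Pcgf3KO, where 2.36% were called. Because the 35 genes were chosen with earlier results of these data known, these shares are no test of the list. Counted without a test, every DKO library lay below the WT library for 22 of 35 genes, beside 34.6% of all genes, and above it for 3, beside 35%. For Pcgf5KO these were 20 below, beside 41%, and 13 above, beside 41.8%, and for Pcgf3KO 20 below, beside 40.6%, and 12 above, beside 40.4%. This lean was measured against WT replicate 2 alone, and it could be checked against WT replicate 1 for only 7 of the 35 genes. For the 6 Atf4-type genes that WT replicate 1 lists, the median log2 difference from WT replicate 1 alone was 0.18 in DKO, 0.25 in Pcgf5KO and 0.24 in Pcgf3KO, positive for 5 of 6 genes in each. From WT replicate 2 over the same genes it was −0.17, −0.072 and −0.099, so the sign turned with the WT library, and none of these genes passed with either. Hsp90b1, the 1 ER gene that WT replicate 1 lists, gave 0.019 in DKO, −0.12 in Pcgf5KO and 0.046 in Pcgf3KO from that library. From WT replicate 2 it gave −0.071, −0.22 and −0.056, so in Pcgf5KO it was negative from both. The 3 comparisons share the single WT library, so the same call in 3 groups is not 3 independent observations.

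**Figure D1:**
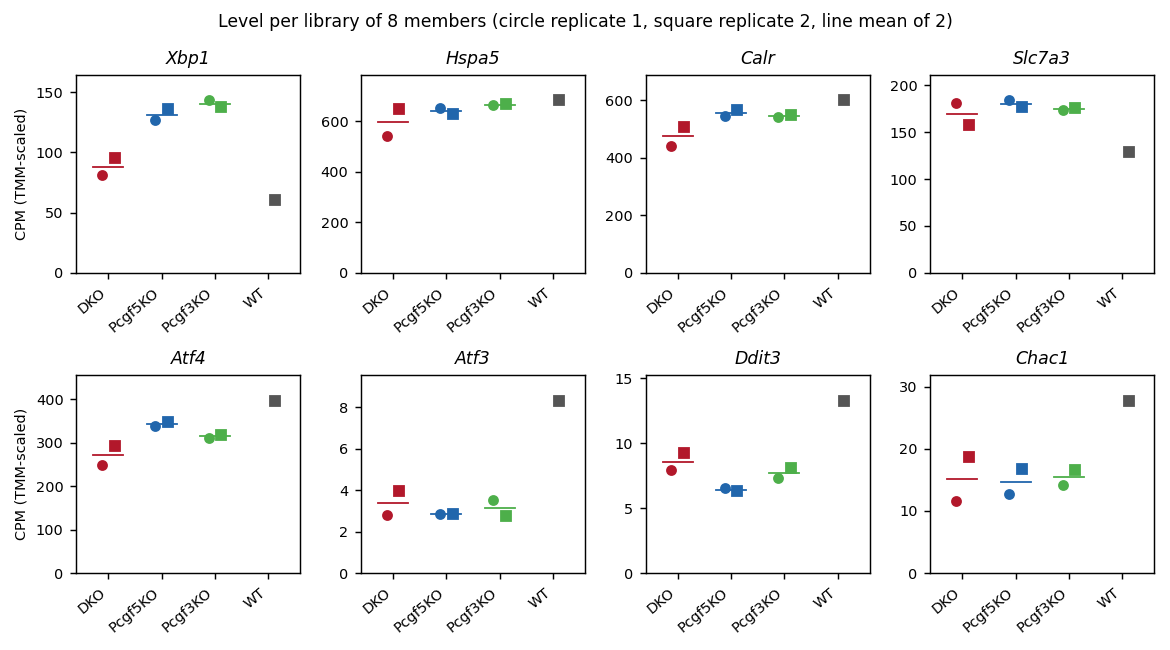
Level of 8 members in each library, in TMM-scaled CPM on linear axes from 0, with DKO, Pcgf5KO, Pcgf3KO and WT from left to right. Circles are replicate 1, squares replicate 2 and lines the mean of 2 libraries. Xbp1 was higher in all 6 knockout libraries (80.9 to 143 CPM) than in WT (60.7 CPM), and Atf3 was lower in all 6 (2.74 to 3.95 CPM) than in WT (8.31 CPM).

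Xbp1 encodes the transcription factor that carries the Ire1 branch of the unfolded protein response. It lies at chromosome 11, 5520659 to 5525893 on the plus strand (mm10, ENSMUSG00000020484). It had 80.9 and 95.5 CPM in DKO, 127 and 136 in Pcgf5KO, 143 and 137 in Pcgf3KO and 60.7 in WT. Every knockout library lay above the WT library, both single knockouts lay above both DKO libraries, and both Pcgf5KO libraries lay below both Pcgf3KO libraries. Against WT, Xbp1 rose 1.45-fold in DKO (log2 fold change 0.54 ± 0.12 SE, adjusted p = 0.0456). It rose 2.16-fold in Pcgf5KO (1.11 ± 0.12, adjusted p = 0.00261) and 2.31-fold in Pcgf3KO (1.21 ± 0.12, adjusted p = 0.00191). DKO was below Pcgf5KO (−0.57 ± 0.10, adjusted p = 0.0259) and below Pcgf3KO (−0.67 ± 0.09, adjusted p = 0.0124). Pcgf5KO against Pcgf3KO gave −0.10 ± 0.09 (adjusted p = 0.784). In bulk RNA a change in the number of cells of a type and a change in RNA per cell cannot be told apart.

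The Xbp1 rise in the single knockouts passed in 12 of 12 alternative analyses, with adjusted p up to 0.0426 in Pcgf5KO and 0.0308 in Pcgf3KO. None of them had another WT library for this gene, because WT replicate 1 does not list it. The DKO calls were less firm. When any 1 of the 4 single knockout libraries was left out, all 3 DKO calls were lost, with adjusted p reaching 0.13 against WT, 0.364 against Pcgf5KO and 0.191 against Pcgf3KO. With only the 2 groups compared in the fit these 3 gave 0.33, 0.109 and 0.0737.

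The other 7 ER genes code for proteins that fold or dispose of ER protein, and none of them passed in any of the 6 comparisons. Hspa5, the ER chaperone BiP, had 542 and 650 CPM in DKO, 651 and 631 in Pcgf5KO, 665 and 667 in Pcgf3KO and 683 in WT. Calr, the calcium-binding lectin chaperone calreticulin, had 442 and 507 CPM in DKO, 546 and 567 in Pcgf5KO, 540 and 547 in Pcgf3KO and 599 in WT. Both had their lowest level in DKO replicate 1 and their highest in WT. The log2 difference from WT was −0.20 ± 0.11 for Hspa5 and −0.34 ± 0.10 for Calr in DKO (adjusted p = 0.349 and 0.103). Herpud1, which helps degrade misfolded ER protein, had 16.6 CPM in both DKO libraries, 18.6 and 22.2 in Pcgf5KO, 18.4 and 16.6 in Pcgf3KO and 24.4 in WT. All 6 knockout libraries lay below WT, with −0.56 ± 0.15 in DKO (adjusted p = 0.0877). Dnajb9 (an ER co-chaperone) and Sdf2l1 (an ER chaperone cofactor) are also known as genes that Xbp1 or Atf6 raise. Dnajb9 had 15.0 and 13.5 CPM in DKO, 16.1 and 16.7 in Pcgf5KO, 17.2 and 17.1 in Pcgf3KO and 15.6 in WT. Sdf2l1 had 29.5 and 39.0 CPM in DKO, 41.1 and 46.1 in Pcgf5KO, 41.2 and 43.3 in Pcgf3KO and 34.8 in WT. The single knockouts were above WT for both genes. Both DKO libraries were below WT for Dnajb9 and lay on both sides of it for Sdf2l1, with no difference past the threshold. Pdia4 (a protein disulfide isomerase) and Hsp90b1 (the ER member of the Hsp90 family) ranged from 215 to 260 CPM and from 307 to 358 CPM. The median log2 difference from WT over the 8 ER genes was −0.16 in DKO, −0.099 in Pcgf5KO and −0.047 in Pcgf3KO, beside 0.014, 0.0050 and 0.0024 over all genes in the same order. The DKO median was −0.14 without DKO replicate 1 and −0.25 without DKO replicate 2.

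Among the 7 transcription factors of the Atf4-type arm, Atf4 itself and Atf3 and Ddit3, both of which it is known to raise, were lower than WT in every knockout library. So was Cebpb, on few reads. In the 4 single knockout libraries Cebpg was below WT, and Atf5 and Nupr1 were above it. Atf4 (chromosome 15, 80255184 to 80257540, plus strand, mm10, ENSMUSG00000042406) had 250 and 293 CPM in DKO, 338 and 347 in Pcgf5KO, 311 and 318 in Pcgf3KO and 397 in WT. The groups did not overlap, with DKO lowest and WT highest. Atf4 fell in DKO against WT (−0.55 ± 0.10, adjusted p = 0.0235), while Pcgf5KO (−0.21 ± 0.10, adjusted p = 0.294) and Pcgf3KO (−0.34 ± 0.10, adjusted p = 0.14) did not pass. DKO against Pcgf5KO gave −0.34 ± 0.08 (adjusted p = 0.068) and against Pcgf3KO −0.21 ± 0.08 (adjusted p = 0.23). The difference from Pcgf5KO passed with DESeq2 (adjusted p = 0.028), with a replicate block (0.0248) and without the filter on low counts (0.00157). It did not pass with only these 2 groups in the edgeR fit (adjusted p = 0.172) or with other library scalings. Nor did it pass without any 1 of the 4 single knockout libraries. With 1 DKO library it was −0.23 without replicate 1 and −0.45 without replicate 2. The DKO call was lost without any 1 of the 4 single knockout libraries (adjusted p up to 0.0869) and in the fit of DKO and WT alone (adjusted p = 0.149).

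Atf3, a repressor and stress-induced factor, was scarce (chromosome 1, 191170296 to 191218039, minus strand, mm10, ENSMUSG00000026628). It had 2.79 and 3.95 CPM in DKO, 2.84 and 2.83 in Pcgf5KO, 3.53 and 2.74 in Pcgf3KO and 8.31 in WT, which are 53 and 80, 48 and 35, 70 and 49, and 146 reads. The 6 knockout libraries overlapped each other and all lay below WT. Atf3 fell 2.46-fold in DKO (−1.30 ± 0.27, adjusted p = 0.0337), 2.93-fold in Pcgf5KO (−1.55 ± 0.28, adjusted p = 0.0248) and 2.64-fold in Pcgf3KO (−1.40 ± 0.27, adjusted p = 0.0303). Each of these calls was lost without any 1 of the 4 single knockout libraries, with adjusted p up to 0.0969 in DKO, 0.218 in Pcgf5KO and 0.259 in Pcgf3KO. DESeq2 gave 0.075 in DKO, 0.0224 in Pcgf5KO and 0.051 in Pcgf3KO. Atf3 also answers to growth factors as an immediate early gene, and the 10 other immediate early genes listed (Fos, Jun, Egr1 and others) summed to 268 and 302 CPM in DKO, 298 and 306 in Pcgf5KO, 345 and 329 in Pcgf3KO and 379 in WT. In DKO 10 of 10 had a negative log2 difference from WT and 1 fell (Junb, −1.12 ± 0.21, adjusted p = 0.0239). In Pcgf5KO 8 of 10 were negative and 2 fell (Btg2, −0.93 ± 0.12, adjusted p = 0.00569, and Klf6, −0.70 ± 0.14, adjusted p = 0.0306), and in Pcgf3KO 8 of 10 were negative and 1 fell (Btg2, −0.91 ± 0.12, adjusted p = 0.00633). Their part in the Atf3 result was not tested.

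Ddit3 encodes CHOP, the factor tied to cell death under lasting ER stress (chromosome 10, 127290774 to 127296288, plus strand, mm10, ENSMUSG00000025408). It had 7.90 and 9.24 CPM in DKO, 6.51 and 6.31 in Pcgf5KO, 7.31 and 8.05 in Pcgf3KO and 13.3 in WT. Pcgf5KO was lowest and WT highest with no overlap, and the DKO and Pcgf3KO libraries overlapped. Ddit3 fell 2.07-fold in Pcgf5KO (−1.05 ± 0.19, adjusted p = 0.023), with −0.63 ± 0.18 in DKO (adjusted p = 0.104) and −0.79 ± 0.18 in Pcgf3KO (adjusted p = 0.0588). The call in Pcgf5KO was lost without any 1 of the 4 single knockout libraries (adjusted p up to 0.205). The library kit does not mark strand, and Ddit3 shares 68 exon bases with Mars on the opposite strand and 105 with a second Ddit3 gene model on its own strand in the GENCODE annotation. Mars had 4725 and 6570 reads in DKO, 5571 and 4050 in Pcgf5KO, 6094 and 5828 in Pcgf3KO and 5473 in WT, far above the 78 to 233 of Ddit3, so some Ddit3 reads may belong to it.

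The other 4 factors did not pass against WT. Atf5, a close relative of Atf4, had 5.43 and 6.08 CPM in DKO, 8.64 and 9.79 in Pcgf5KO, 9.77 and 8.84 in Pcgf3KO and 8.48 in WT. It was lowest in both DKO libraries, with −0.67 ± 0.16 against Pcgf5KO (adjusted p = 0.0631) and −0.69 ± 0.16 against Pcgf3KO (adjusted p = 0.069). It shares 82 exon bases with Il4i1 on the opposite strand, which had 3029 to 4524 reads against 103 to 194 of Atf5. Nupr1, a small stress-induced chromatin protein, had 15.5 and 13.6 CPM in DKO, 17.1 and 17.5 in Pcgf5KO, 19.8 and 18.3 in Pcgf3KO and 13.7 in WT. The C/EBP factor Cebpg ranged from 30.4 to 42.0 CPM, and Cebpb had between 6 and 16 reads a library, too few to read a difference from.

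Of the 5 stress effectors and feedback genes, none passed. Chac1 and Calr, like several other members that were not called, are given in every library by choice after their values were seen. Chac1 encodes an enzyme that degrades glutathione, and it had 11.5 and 18.7 CPM in DKO, 12.7 and 16.7 in Pcgf5KO, 14.2 and 16.6 in Pcgf3KO and 27.7 in WT. All 6 knockout libraries were below WT and the 3 knockout groups overlapped. The log2 difference from WT was −0.87 ± 0.25 in DKO (adjusted p = 0.108), −0.93 ± 0.26 in Pcgf5KO (adjusted p = 0.0989) and −0.85 ± 0.25 in Pcgf3KO (adjusted p = 0.13). DESeq2 gave adjusted p of 0.0597, 0.0416 and 0.0847, so that 1 of the 3 passed there. Trib3, a pseudokinase that restrains Atf4 and CHOP, had 53.1 and 65.4 CPM in DKO, 74.1 and 81.0 in Pcgf5KO, 72.5 and 78.7 in Pcgf3KO and 84.4 in WT. It was lowest in DKO with no overlap with any other group (−0.51 ± 0.13 against WT, adjusted p = 0.08), and DESeq2 gave an adjusted p of 0.0495 there. Ddit4, an inhibitor of the growth kinase mTORC1, ran the other way, with 67.9 and 67.4 CPM in DKO, 53.5 and 56.5 in Pcgf5KO, 53.8 and 52.0 in Pcgf3KO and 61.8 in WT. DKO was above all other groups (0.30 ± 0.08 against Pcgf5KO, adjusted p = 0.0801; 0.36 ± 0.08 against Pcgf3KO, adjusted p = 0.0719). Ppp1r15a, which brings phosphatase to eIF2alpha and so ends the response, ranged from 24.6 to 31.4 CPM, and the lipoprotein receptor Vldlr from 3.80 to 6.09 CPM.

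**Figure D2:**
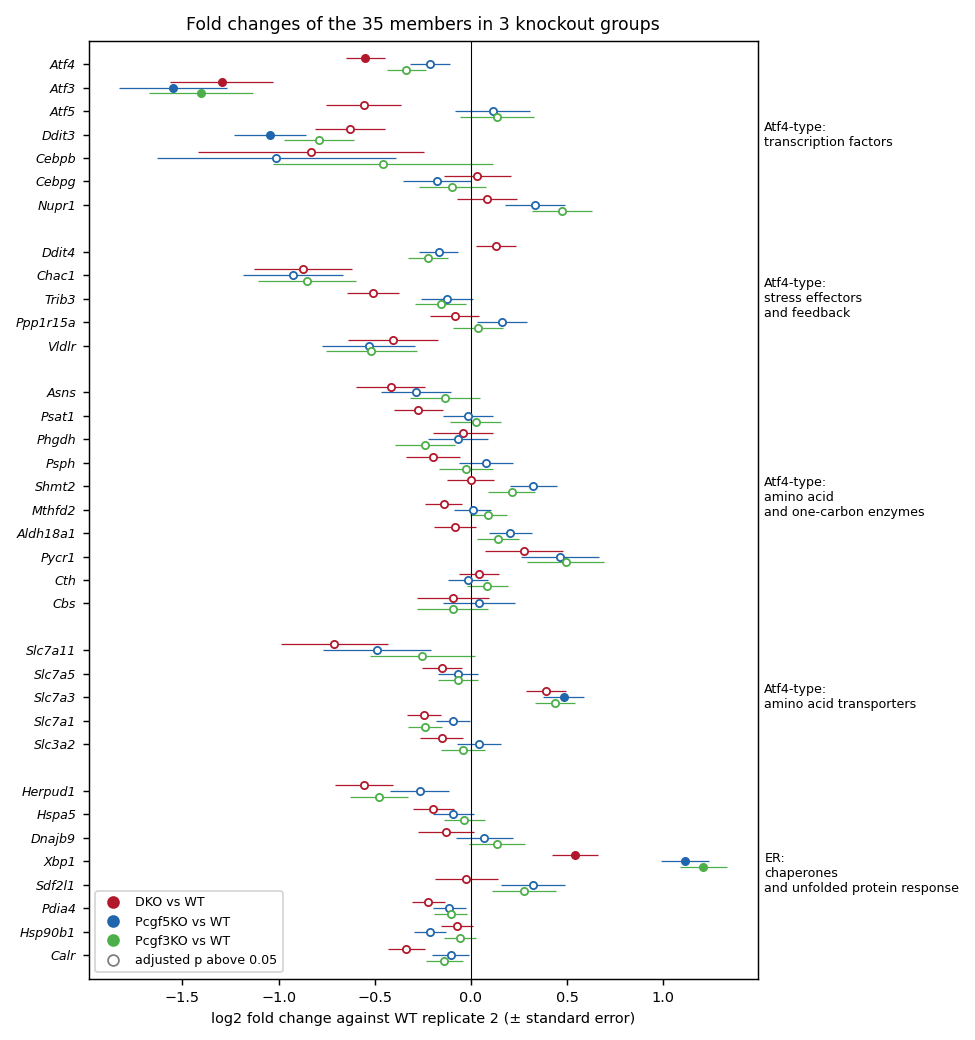
Log2 fold change against WT replicate 2 of all 35 genes by role, for DKO, Pcgf5KO and Pcgf3KO from top to bottom within a gene, with bars of 1 standard error from the edgeR fit and filled points past the adjusted p threshold. The filled points are Xbp1 and Atf3 in all 3 groups, Atf4 in DKO, and Ddit3 and Slc7a3 in Pcgf5KO. The 10 enzymes sit between −0.42 and 0.49 in all 3 groups.

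None of the 10 enzymes of amino acid and one-carbon synthesis passed in any comparison. The largest log2 difference from WT, in either direction, was that of Pycr1, the last enzyme of proline synthesis, in Pcgf3KO (0.49 ± 0.20, adjusted p = 0.269). Pycr1 had 28 and 41.1 CPM in DKO, 37.2 and 41.8 in Pcgf5KO, 39.5 and 40.9 in Pcgf3KO and 28.6 in WT, so the 4 single knockout libraries lay above WT and the DKO libraries lay on both sides of it. The summed level of the 10 enzymes was 1792 and 2250 CPM in DKO, 2266 and 2247 in Pcgf5KO, 2222 and 2298 in Pcgf3KO and 2260 in WT. The other 6 libraries lay between 2222 and 2298 CPM, and DKO replicate 1 lay below them. The median log2 difference from WT was −0.090 in DKO, 0.025 in Pcgf5KO and 0.054 in Pcgf3KO. Shmt2, which passes serine carbon into the mitochondrial folate pool, had 213 and 265 CPM in DKO, 297 and 302 in Pcgf5KO, 268 and 286 in Pcgf3KO and 239 in WT. Psph, the last enzyme of serine synthesis, shares 452 exon bases with the abundant Cct6a on the opposite strand (10975 to 17210 reads a library against 700 to 1067 of Psph), so its values may hold reads of that gene.

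Of the 5 amino acid transporters, 1 passed. Slc7a3, an importer of arginine and lysine (chromosome X, 101079210 to 101086020, minus strand, mm10, ENSMUSG00000031297), had 181 and 158 CPM in DKO, 184 and 176 in Pcgf5KO, 174 and 175 in Pcgf3KO and 129 in WT. All 6 knockout libraries were above WT, and the DKO libraries spanned those of Pcgf3KO and overlapped those of Pcgf5KO. Slc7a3 rose 1.40-fold in Pcgf5KO (0.48 ± 0.11, adjusted p = 0.0445), with 0.39 ± 0.11 in DKO (adjusted p = 0.0861) and 0.44 ± 0.11 in Pcgf3KO (adjusted p = 0.0681). The call was lost without any 1 of the 4 single knockout libraries (adjusted p up to 0.321), and DESeq2 also called it in Pcgf3KO (adjusted p = 0.0433). Slc7a1, the widely expressed importer of the same amino acids, had 116 and 117 CPM in DKO, 127 and 132 in Pcgf5KO, 118 and 116 in Pcgf3KO and 138 in WT. It was below WT in all 6 knockout libraries, with −0.25 ± 0.09 in DKO (adjusted p = 0.177). Slc7a5 and Slc3a2, the 2 chains of the large neutral amino acid exchanger, ranged from 460 to 557 and from 279 to 357 CPM. Slc7a11, the cystine importer, ranged from 3.90 to 7.46 CPM, and per kilobase of exon it was the lowest of the 35 in DKO and in WT.

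The order of levels, set per kilobase of exon since longer genes collect more reads, changed little for most genes. Calr ranked first in all 4 groups, with 165 CPM per kilobase in DKO, 193 in Pcgf5KO, 189 in Pcgf3KO and 208 in WT. Atf4 ranked 6 in DKO, 3 in Pcgf5KO, 6 in Pcgf3KO and 2 in WT. Xbp1 ranked 19 in DKO and in WT and 15 in both single knockouts, with 27.2, 40.4 and 43.2 CPM per kilobase in DKO, Pcgf5KO and Pcgf3KO and 18.7 in WT. The levels of neighbours in this order differed by less than the gap between the DKO libraries in many cases, such as Hspa5 (128 and 154 CPM per kilobase) and Phgdh (118 and 163) in DKO.

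DKO was also compared with each single knockout. Because the clones or cultures behind the libraries are not given, loss of the second gene and a difference between clones cannot be told apart. Xbp1, lower in DKO, was the 1 of 35 called against Pcgf5KO, where 2.28% of all genes were called, and the 1 of 35 called against Pcgf3KO, where 1.74% were called. Many other members were lower without passing. Both DKO libraries lay below both Pcgf5KO libraries for 18 of 35 genes, beside 27.7% of all genes, and above them for 3, beside 27.3%. They lay below both Pcgf3KO libraries for 17 of 35, beside 23.5% of all genes, and above them for 1 (Ddit4), beside 23%. By arm, the counts below were 6 of 8 ER and 12 of 27 Atf4-type genes against Pcgf5KO, and 7 of 8 and 10 of 27 against Pcgf3KO. The median log2 difference of the ER arm was −0.21 against Pcgf5KO and −0.18 against Pcgf3KO, and that of the Atf4-type arm −0.15 and −0.12, beside 0.015 and 0.012 over all genes. Related genes outside the 35 also leaned below. Their medians in the same order were −0.11 and −0.12 for 25 other ER folding and degradation genes and −0.11 and −0.15 for 21 other Atf4 targets. They were −0.029 and −0.067 for 9 ER stress sensors and −0.059 and −0.052 for 14 eIF2alpha kinases and translation initiation genes. The 2 comparisons share the DKO libraries. Between the single knockouts, Pcgf5KO against Pcgf3KO, edgeR called 0 of 35 genes (0 at an unadjusted p of at most 0.05, and 0 by DESeq2), where 0.14% of all genes were called. The medians there were −0.013 for the Atf4-type and −0.031 for the ER arm.

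These differences depended on which DKO library was used. Without DKO replicate 1 the medians of DKO against Pcgf5KO were −0.069 for the Atf4-type and −0.14 for the ER arm, and against Pcgf3KO −0.036 and −0.093. Without DKO replicate 2 they were −0.27 and −0.26 against Pcgf5KO and −0.30 and −0.25 against Pcgf3KO. With 1 DKO library the fit also held less spread and called many more genes, members and others alike. Without DKO replicate 1, 12 of 35 members passed in DKO against WT (16.2% of all genes), 12 in Pcgf5KO (26.8%) and 14 in Pcgf3KO (20.6%). Without DKO replicate 2 these were 21 (34.5%), 12 (26.4%) and 14 (20.2%). Against Pcgf5KO and Pcgf3KO, DKO had 10 (16%) and 8 (12.6%) members called without replicate 1, and 24 (42.3%) and 21 (35.8%) without replicate 2. In both settings Chac1, Ddit3, Slc7a3 and Atf4 joined Xbp1 and Atf3 among the genes that passed against WT in all 3 knockout groups.

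The DKO libraries themselves differed, in the amino acid enzymes and in other gene groups. Asns, which makes asparagine and is a standard readout of Atf4, had 253 CPM in DKO replicate 1 and 379 in replicate 2, beside 354 and 339 in Pcgf5KO, 385 and 383 in Pcgf3KO and 422 in WT. Psat1 had 416 and 540 CPM and Phgdh 294 and 405 CPM in the DKO replicates 1 and 2, both enzymes of serine synthesis. For Psat1 the other 5 libraries lay between 568 and 591 CPM, and for Phgdh between 291 and 360 CPM. Asns and Psat1 were thus lowest of all libraries in DKO replicate 1, and Phgdh was highest of all in DKO replicate 2. In all, 26 of 35 members were lower in DKO replicate 1 than in replicate 2, beside 51.9% of all genes, and the median log2 ratio was −0.23, beside −0.017. In Pcgf5KO 25 of 35 members were lower in replicate 1 (median −0.049), beside 48.8% of all genes, and in Pcgf3KO 20 of 35 (median −0.017), beside 50.3%. In DKO the share was 9 of 10 for the enzymes (median −0.36), 6 of 8 for the ER genes (median −0.15) and 3 of 5 for the transporters (median −0.007). It was 8 of 10 for the immediate early genes (median −0.41) and 9 of 12 for the heat shock genes outside the ER (median −0.15). Other ER folding and degradation genes had 13 of 25 (median −0.058) and ER stress sensors 4 of 9 (median 0.14). The eIF2alpha kinases and translation initiation genes had 7 of 14 (median −0.011). Cytosolic tRNA synthetases charge tRNAs with amino acids and include known Atf4 targets. Of 20 listed, 19 were matched by symbol, and Mars, listed under another name, was left out. The 19 were lower in replicate 1 in 18 cases (median −0.23), whereas 21 other Atf4 targets were lower in 11. Nars is in both lists. The median absolute log2 difference of the 35 members was 0.237 in DKO, 0.056 in Pcgf5KO and 0.074 in Pcgf3KO. Over all genes it was 0.245, 0.106 and 0.111, so the DKO pair was further apart throughout. These are differences within a pair of libraries and have no test.

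**Figure D3:**
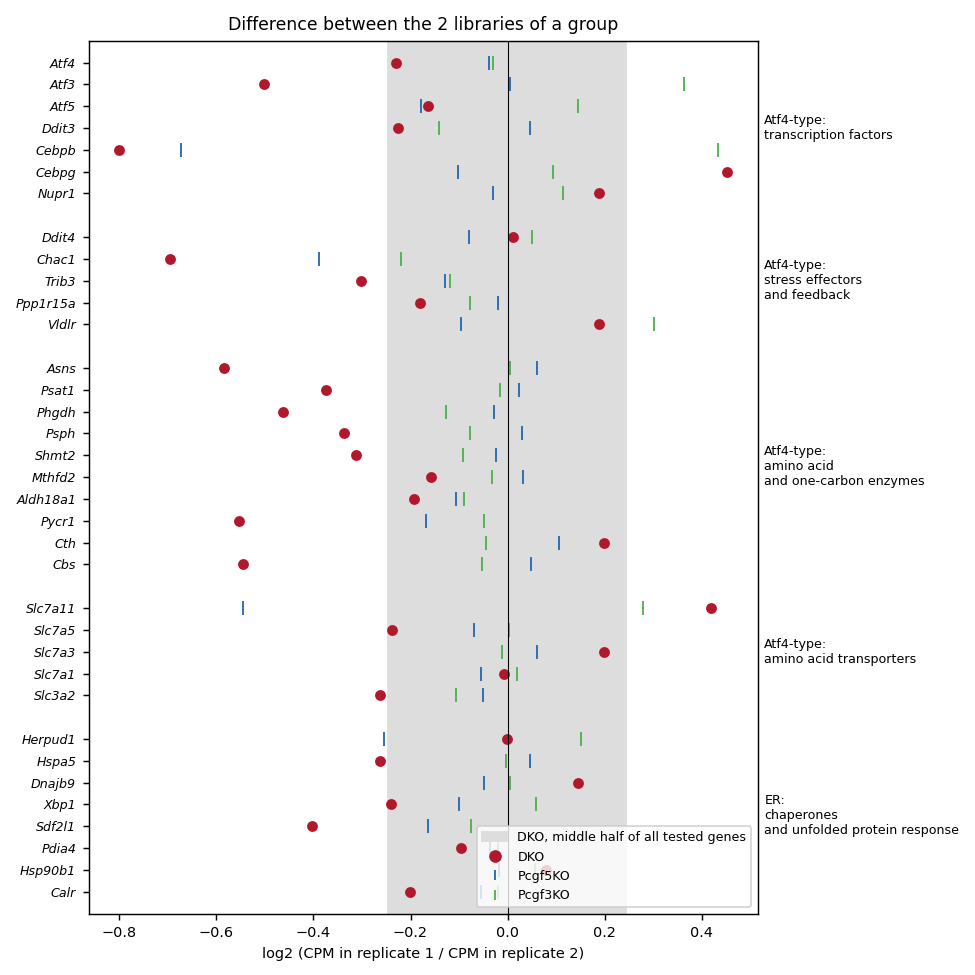
Log2 ratio of replicate 1 to replicate 2 for each of the 35 genes, as points for DKO and ticks for Pcgf5KO and Pcgf3KO. The grey band holds the middle 50% of all tested genes in DKO. The DKO points lie left of 0 for 26 of 35 genes and for 9 of the 10 enzymes.

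WT replicate 1 lists 7 of the 35 genes, and these allow a look at the spread of the WT group. Over the 2702 genes that passed the filter in all 8 libraries, with CPM counted over those genes only, all 7 were lower in WT replicate 1 than in WT replicate 2. The ratio was 0.728 for Psph, 0.74 for Vldlr, 0.757 for Asns, 0.759 for Phgdh, 0.827 for Slc7a5, 0.831 for Nupr1 and 0.93 for Hsp90b1. Over all 2702 genes 52.2% were lower in WT replicate 1 and the median absolute log2 difference was 0.15. Asns shows the size of it, with 1429 and 2142 CPM in DKO, 1984 and 1898 in Pcgf5KO, 2168 and 2167 in Pcgf3KO and 1802 and 2380 in WT. The WT libraries thus spanned the 4 single knockout libraries. The 5 genes called in the 7-library fit are not listed in WT replicate 1, so their WT level rests on WT replicate 2 alone, the library in which all 7 shared members were higher.

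**Figure D4:**
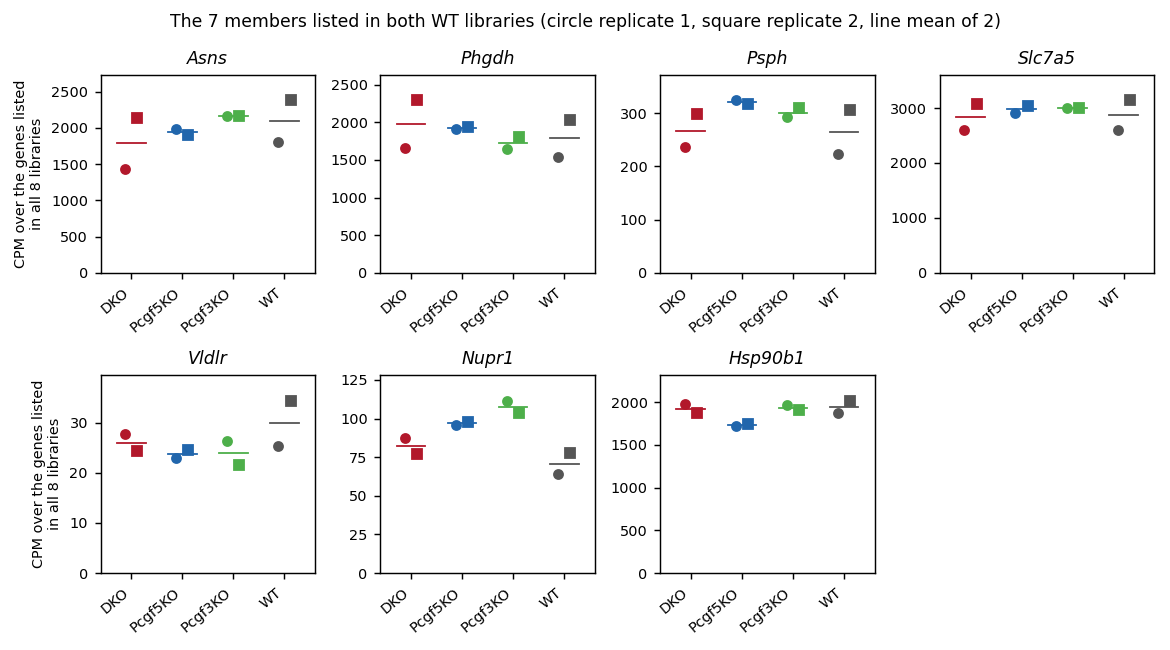
Levels of the 7 members that both WT libraries list, in CPM over the genes listed in all 8 libraries, with DKO, Pcgf5KO, Pcgf3KO and WT from left to right, circles for replicate 1, squares for replicate 2 and lines for the mean of 2. WT replicate 1 lies below WT replicate 2 for all 7, and Nupr1 is above both WT libraries in the 4 single knockout libraries.

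In the 8-library fit Nupr1 was the 1 of 7 members called, and only in Pcgf3KO, where 5.51% of all genes were called. Nupr1 (chromosome 7, 126623249 to 126630861, minus strand, mm10, ENSMUSG00000030717) had 87.6 and 76.8 CPM in DKO, 96.0 and 97.7 in Pcgf5KO, 112 and 103 in Pcgf3KO and 64.3 and 77.4 in WT. Both single knockouts lay above both WT libraries, and DKO overlapped WT. Nupr1 rose in Pcgf3KO (0.60 ± 0.13, adjusted p = 0.0251), with 0.45 ± 0.14 in Pcgf5KO (adjusted p = 0.0675) and 0.22 ± 0.14 in DKO (adjusted p = 0.343). In the 7-library fit the values were 0.47 in Pcgf3KO (adjusted p = 0.164), 0.33 in Pcgf5KO (adjusted p = 0.283) and 0.08 in DKO (adjusted p = 0.805). In the 8-library fit edgeR called 0 of 7 in DKO (8.11% of all genes; 0 of 7 at an unadjusted p of at most 0.05) and 0 of 7 in Pcgf5KO (8.62%; 2 unadjusted). It called 0 of 7 in DKO against Pcgf5KO (2.37%; 0 unadjusted), in DKO against Pcgf3KO (0.518%; 1 unadjusted) and in Pcgf5KO against Pcgf3KO (0.185%; 1 unadjusted). DESeq2 was not run on the 8 libraries.

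Genes around these members in the same pathways mostly did not pass. Of 14 eIF2alpha kinases and translation initiation genes, 0 were called in any of the 6 comparisons, and their median log2 difference from WT was 0.052 in DKO, 0.068 in Pcgf5KO and 0.077 in Pcgf3KO. Of 21 other Atf4 targets 0 were called, with medians of −0.062, −0.024 and 0.084 in the same order. Of 9 ER stress sensors 0 were called. Ern1, the gene of Ire1, had 25.6 and 21.6 CPM in DKO, 18.5 and 16.3 in Pcgf5KO, 22.8 and 19.6 in Pcgf3KO and 22.4 in WT. These counts do not measure Ire1 activity, and its part in the Xbp1 result was not tested. Of 25 other ER folding and degradation genes 1 was called, Ero1l, an ER oxidase, which was higher in DKO than in Pcgf5KO (0.72 ± 0.13, adjusted p = 0.03). Of the 19 tRNA synthetases 1 was called, Hars, with 75.5 and 76.8 CPM in DKO and 99.3 and 102 in Pcgf5KO (−0.40 ± 0.08, adjusted p = 0.0373). Their median was −0.13 in DKO against WT, where 17 of 19 were negative, and −0.19 and −0.21 in DKO against Pcgf5KO and Pcgf3KO, where 18 of 19 were negative each time. Of 12 heat shock protein genes outside the ER, Hspa1b fell in DKO against WT (−1.04 ± 0.20, adjusted p = 0.0256) and against Pcgf5KO (−0.83 ± 0.17, adjusted p = 0.0435), and 12 of 12 were negative in DKO against each single knockout. Hspa1b and its neighbour Hspa1a are near-identical copies, so their reads may be split between them.

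The labelled cell type was checked on 12 ES cell markers, all of which passed the filter, and on 23 markers of feeder fibroblasts, of which 21 did. The ES markers summed to 3688 and 3869 CPM in DKO, 4272 and 4286 in Pcgf5KO, 3989 and 4130 in Pcgf3KO and 3507 in WT, with Pou5f1 at 207 and 199, 260 and 261, 224 and 233, and 196 CPM. The feeder markers summed to 1506 and 1349 CPM in DKO, 1365 and 1430 in Pcgf5KO, 1052 and 1057 in Pcgf3KO and 1549 in WT, and none was at 0 in all libraries. Fn1 made up most of that sum, with 1138 and 974 CPM in DKO, 996 and 1046 in Pcgf5KO, 741 and 732 in Pcgf3KO and 1091 in WT. Without Fn1, a sum chosen after the values were seen, the markers gave 368 and 375 CPM in DKO, 370 and 384 in Pcgf5KO, 312 and 325 in Pcgf3KO and 457 in WT. With and without Fn1, WT was highest and Pcgf3KO lowest, and the place of DKO replicate 1 turned on Fn1: 14 of 21 markers were lower in it than in DKO replicate 2. Against WT, 5 of 21 feeder markers fell in DKO, 1 in Pcgf5KO and 6 in Pcgf3KO, and none rose past the threshold. The log2 difference from WT was positive for 5 of 21 in DKO, 2 in Pcgf5KO and 1 in Pcgf3KO. In DKO against Pcgf3KO 5 rose and 2 fell. Col1a1 was called lower than WT in all 3 groups. It had 5.32 and 6.92 CPM in DKO, 7.34 and 7.93 in Pcgf5KO, 5.19 and 6.60 in Pcgf3KO and 16.2 in WT. Col6a3 ran the other way without passing, with 0.829 to 1.74 CPM in the 6 knockout libraries and 0.569 in WT. The part of feeder RNA in the values of the 35 genes was not tested.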

How the data were processed

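Poly-A RNA of 8 ES cell samples was read as gene counts. The deposited tables hold the authors' raw read counts per Ensembl gene, and per the submitters' processing notes TopHat2 2.0.12, Cufflinks 2.2.1, HTSeq 0.6.0 and mm10 were used. The kit does not mark strand. Of 47069 identifiers 46488 were matched to a symbol in GENCODE M21. WT replicate 1 holds 8093 genes, so edgeR 4.0.16 (R 4.3.3; TMM, filterByExpr, quasi-likelihood test, group as the only term) was fitted to the other 7 libraries together over 15669 genes, with 3 residual degrees of freedom. The lone WT library was assumed to vary like the others. An 8-library fit covered 2702 genes. Standard errors were taken as the log2 fold change over the square root of F, and p-values were Benjamini-Hochberg adjusted over all genes tested. Code was tested on simulated counts. The members and all gene lists were chosen with earlier results of these data known. All 35 members are named, and of each other list up to 4 called genes per comparison with the smallest p. Per-library values were set for called members and for those furthest apart between the DKO libraries. Others, such as Herpud1, Dnajb9, Ddit4 and Slc7a1, were added after their values were seen. Slc7a5 and Slc3a2, at −82.3 and −55.7 CPM in DKO replicate 1 minus replicate 2, are given as ranges only. Replicate numbers do not pair the samples. Alternatives were DESeq2 1.42.0, other scalings, no filter, 2 groups only, a replicate block and leaving out each library.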

Additional observations from a re-analysis of the deposited data

How the results depend on the processing

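Counts of calls depended on the processing, and so did some fold changes. Of 210 fold changes of members, 2 changed sign with DESeq2 and 11 with the replicate block. Without DKO replicate 1 it was 22 of 210, without DKO replicate 2 it was 13, and without WT replicate 2 it was 14 of 126. In the order DKO against WT, Pcgf5KO against WT, Pcgf3KO against WT, DKO against Pcgf5KO, DKO against Pcgf3KO and Pcgf5KO against Pcgf3KO, the 7-library edgeR fit called 505, 468, 370, 357, 272 and 22 genes. The 8-library fit called 219, 233, 149, 64, 14 and 5, and the 7 libraries over the genes listed in all 8 gave 60, 81, 49, 14, 11 and 2. Without the filter the counts were 1474, 1222, 1105, 2312, 1355 and 224, and with only the 2 groups compared 329, 4882, 3030, 7, 35 and 1874. DESeq2 gave 794 for DKO against Pcgf5KO and 75 for Pcgf5KO against Pcgf3KO. The replicate block gave 1532, 499 and 62 in the last 3 comparisons. Leaving out each library gave 94 to 5379, 37 to 4119, 46 to 3167, 3 to 6583, 7 to 5571 and 3 to 1909, where WT replicate 1 stood in for replicate 2 over the genes it lists.

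Members called numbered 3, 4, 2, 1, 1 and 0 in the same order. They numbered 0, 0, 1, 0 and 0 in the first 5 comparisons of the 8-library fit, and 0 in each over the genes listed in all 8. Without the filter they were 10 in DKO against WT, 7 in Pcgf3KO against WT, 9 in DKO against Pcgf5KO and 6 in DKO against Pcgf3KO. With 2 groups only they were 18 in Pcgf5KO and 14 in Pcgf3KO against WT, 0 and 0 in DKO against Pcgf5KO and Pcgf3KO, and 3 between the single knockouts. DESeq2 called 2 and the replicate block 6 in DKO against Pcgf5KO. Leaving out each library gave 0 to 21, 0 to 12, 0 to 14, 0 to 24, 0 to 21 and 0 to 3. The replicate block changed no other member's call. The cause of these shifts was not tested.

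Without DKO replicate 2, Cbs in DKO against Pcgf3KO gave −0.30 and Phgdh in DKO against Pcgf5KO −0.22, both called and opposite in sign to 7-library values of 0.0013 and 0.023, which were near 0. Without DKO replicate 1 they gave 0.24 and 0.24. RLE and upper quartile scaling changed no call of the members. Same-numbered libraries had deviations correlated at −0.014, 0.135 and 0.010, so the numbers were not taken as pairs. Atf3, Ddit3 and Cebpb rest on few reads.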
